A study of Mus musculus with 4 samples.

Results

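The cadherins Cdh3, Cdh4, Cdh5, Cdh6, Cdh8, Cdh11, Cdh13 and Cdh16 were followed across the stromal cell types of the mouse thymus and between wild-type mice and mice with a weak allele of Foxn1, the master transcription factor of thymic epithelium. They were taken by symbol from the matrices of all 4 libraries. Each symbol matched 1 row, and together they made up 8 of 32285 measured features. Cdh1 (E-cadherin) and Cdh2 (N-cadherin) were not members of the set and entered only as genes of a comparison list. Cdh13 and Cdh16 are relatives of the classical cadherins that lack the catenin-binding tail, so the name classical cadherin does not hold for this pair in its strict sense.

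Cadherins are calcium-dependent adhesion receptors whose outer repeats bind cadherins, mostly of the same kind, on the neighbouring cell. The inner tail of a classical cadherin binds catenins, which link it to actin and build the adherens junction. Type I and type II members differ in the residues that the partner molecules exchange when they bind, and cells with different cadherins tend to sort apart. In the thymus, this adhesion system is shared by an epithelial meshwork, by fibroblasts and by the endothelial and mural cells of its vessels.

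The single-cell RNA-seq (scRNA-seq) libraries came from untreated C57BL/6 mice at 6 months of age, with 2 wild-type (WT) libraries and 2 of mice homozygous for the Foxn1 LacZ allele (Z/Z). Thymi were pooled and digested, CD45+ blood cells were depleted with beads, and the CD45- stroma was sorted before droplet capture. The hypomorphic Z/Z allele is carried by all cells of the animal and Foxn1 acts in thymic epithelial cells (TECs). The labels call the control libraries mock in their titles and wild type by genotype, state the sex of the mice in conflicting ways, and do not say whether libraries of the same genotype came from separate pools of animals, so the spread between them may be technical and each p value measures only that spread.

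Of 13981 called cells, 9846 were kept: 1458 and 456 in WT 1 and WT 2, and 4455 and 3477 in Z/Z 1 and Z/Z 2. Total unique molecular identifiers (UMIs, each marking a captured RNA molecule) ranged from 8468086 in WT 2 to 50705511 in Z/Z 1. Libraries of the same genotype shared more barcodes than libraries of different genotypes, with 202 called barcodes common to the WT pair, 249 common to the Z/Z pair and 0 to 6 common to any WT and Z/Z library. Among kept cells, 147 of the 456 in WT 2 had a shared barcode, so the genotype results that the text turns on are also given with such cells left out. In TECs, Foxn1 itself was at 89.3 and 116 counts per 1000000 UMIs of the summed cells (CPM) in WT against 50.7 and 68.3 CPM in Z/Z. Cell types were rebuilt from clusters made without the cadherins, and class names below mean cells like those described by their markers.

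Among lineages present in all 4 libraries, Cdh3, Cdh4 and Cdh8 were highest in TECs, Cdh5 and Cdh13 in endothelial cells, Cdh6 in vascular smooth muscle cells (vSMCs) and Cdh11 in fibroblasts. Summed over kept cells, the members gave 6973 UMIs for Cdh3, 7879 for Cdh4, 11876 for Cdh5, 1253 for Cdh6, 2057 for Cdh8, 6945 for Cdh11, 9218 for Cdh13 and 51 for Cdh16. Levels are compared within a gene only, since a 3′ library that also counts intron reads does not give levels per length, and clusters were built from the same cells, so the order of levels is a description with no test.

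**Figure D1:**
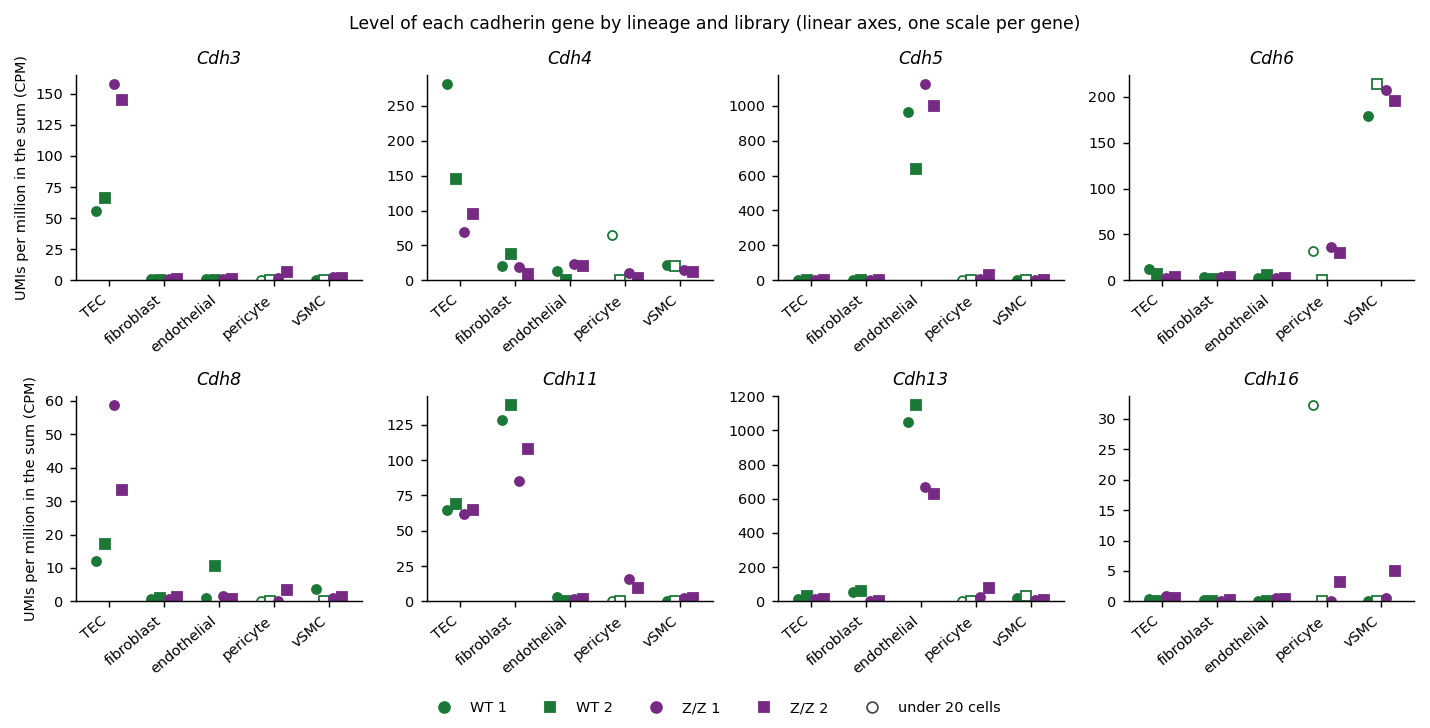
CPM (linear vertical axis, with its own scale for each gene) of each of the 8 cadherins in TECs, fibroblasts, endothelial cells, pericytes and vSMCs. There is 1 point for each library, with open markers for sums of under 20 cells. Cdh5 lies between 636 and 1122 CPM in endothelial cells of the 4 libraries and at most at 2.74 CPM in fibroblasts, and Cdh6 lies between 179 and 213.5 CPM in vSMCs.

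For the comparison of genotypes, UMIs were summed per lineage and library and tested across libraries with edgeR's quasi-likelihood test, with p values adjusted over all genes tested in that lineage. Changes are log2 fold changes of Z/Z over WT ± SE (n = 2 libraries per genotype). In TECs, 2 of the 7 members tested rose (Cdh3 and Cdh8) and none fell, where 21.5% of all 18866 genes tested passed the threshold (9.74% higher, 11.8% lower). In fibroblasts, 1 of 4 members tested fell (Cdh13), against 2.92% of all genes called (1.20% lower). In endothelial cells, edgeR called 0 of 3 members, against 1.90% of all genes, with 1 member (Cdh13) at an unadjusted p under 0.05 and also called by DESeq2. In mural cells (pericytes and vSMCs together), edgeR called 0 of 3 members, against 0.0809% of all genes, with 0 members at an unadjusted p under 0.05 and 0 called by DESeq2.

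**Figure D2:**
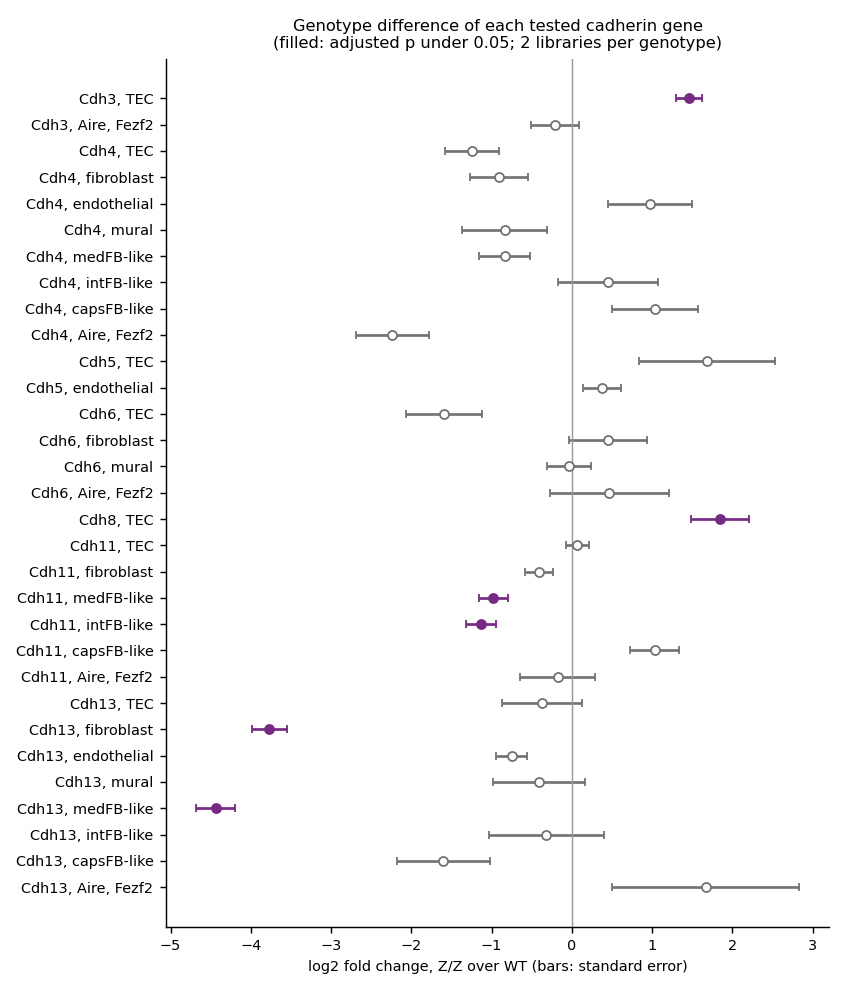
Log2 fold change of Z/Z over WT with its SE for each member tested (n = 2 libraries per genotype). Rows cover TECs, fibroblasts, endothelial cells and mural cells, and the classes tested below. These are medFB-like, intFB-like and capsFB-like fibroblasts and the Aire and Fezf2 cells of TECs. Filled points have an adjusted p under 0.05. Among lineages, the filled points are Cdh3 (1.46) and Cdh8 (1.84) in TECs and Cdh13 (-3.77) in fibroblasts. Among classes, they are Cdh11 in medFB-like (-0.98) and intFB-like cells (-1.14) and Cdh13 in medFB-like cells (-4.44).

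The TEC sums differed between genotypes in their make-up and depth. Cells of the Aire and Fezf2 cluster, medullary cells that express tissue antigens for tolerance, were 49.6% and 45.2% of TECs in the WT libraries and 3.06% and 5.17% in the Z/Z libraries. Nos1 cells with few Epcam UMIs (aaTEC2-like, an age-associated class) were 2.36% and 0% in WT against 28.2% and 24.7% in Z/Z. The median TEC held 16863.5 and 17716.5 UMIs in WT against 6747 and 7046.5 in Z/Z, and the summed level of 8 haematopoietic markers in TECs was 1071 and 1659 CPM in WT against 102 and 339 CPM in Z/Z, with none of the 8 at 0 in any library. Cd52, 1 of these 8 markers, was also the leading gene of the Aire and Fezf2 cluster, so this sum cannot be read as blood-cell RNA alone. The called TEC changes of the members and the counts of the lists are therefore also given without the Aire and Fezf2 cluster, where 3.38% of 16640 genes were called, and after thinning each cell to 2000 UMIs.

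Cdh3 (P-cadherin), a type I cadherin of basal layers of stratified epithelia, was an epithelial gene here. In TECs its level was 56.0 and 66.4 CPM in WT 1 and WT 2 against 158 and 145 CPM in Z/Z 1 and Z/Z 2. Fibroblasts reached at most 1.08 CPM, endothelial cells 1.35 CPM and vSMCs 2.97 CPM, so the TEC range stood apart from these lineages while their own ranges overlapped. Outside TECs, Cdh3 was measured in a few mesothelial-like cells (36.3 and 166 CPM in 4 and 27 cells of Z/Z 1 and Z/Z 2) and in an unnamed cluster led by Ctnna2, Ncam2 and Luzp2 that was present in the Z/Z libraries (114 and 87.3 CPM in 116 and 39 cells).

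In TECs, Cdh3 rose by 1.46 ± 0.164 on the log2 scale (adjusted p = 0.00906, edgeR), and both Z/Z libraries lay above both WT libraries. The share of TECs with a Cdh3 UMI, after each cell was thinned to 2000 UMIs, was 9.01% (exact binomial 95% interval 6.74 to 11.7) in WT 1, 9.62% (4.71 to 17.0) in WT 2, 19.4% (17.7 to 21.3) in Z/Z 1 and 19.2% (17.2 to 21.3) in Z/Z 2. These intervals cover counting error only. The unthinned shares were 34.1%, 32.7%, 43.9% and 44.8%, and fibroblasts, which should lack the gene, had thinned shares of 0%, 0%, 0% and 0.408% (of 592, 192, 1205 and 736 cells) at median depths from 10301 to 14763.5 UMIs. The difference in thinned shares was 9.99 percentage points, with no overlap between genotypes (exact permutation p = 0.33, two-sided, the smallest that 2 against 2 libraries can give).

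The Cdh3 call did not hold for every choice of TECs and libraries. Without the Aire and Fezf2 cluster the log2 fold change of Cdh3 was 0.65 (adjusted p = 0.0998, edgeR), with cells of shared barcodes left out it was 1.06 (adjusted p = 0.169, where 1 of 17695 genes was called), after thinning it was 1.13 (adjusted p = 0.00258), and without Z/Z 1 it was 1.39 (adjusted p = 0.0602, where 0 genes were called). Within that cluster Cdh3 was low in every library, at 25.3, 28.6, 20.2 and 26.1 CPM in WT 1, WT 2, Z/Z 1 and Z/Z 2, and its fold change there was -0.21 ± 0.296 (adjusted p = 0.774). The cTEC-like cells of the cortex held more of it, at 77.4 and 135 CPM in WT against 275 and 211 CPM in Z/Z, and so did the Ccl21a and Krt14 medullary cells (mTEC1-like), at 195 and 109 CPM in WT against 248 and 231 CPM in Z/Z. In both classes the libraries of WT 2 rested on few cells (6 and 4), and the genotypes did not overlap, but neither class had enough cells for a test.

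Among the other TEC classes, Cdh3 was at 60.6, 131, 151.5 and 122 CPM in the Otog cells (aaTEC1-like) of WT 1, WT 2, Z/Z 1 and Z/Z 2. The genotypes overlapped there through WT 2, where 1 of 10 cells held 23 of the 32 UMIs, and WT 1 had 15 cells. The aaTEC2-like cells had 41.0 CPM in WT 1 (13 cells), 52.9 and 42.2 CPM in the Z/Z pair, and WT 2 held none of these cells. The unnamed cluster led by Trp63 and Mgat5b was the highest for Cdh3 in WT, at 292 and 302 CPM (14 and 9 cells), against 178 and 279.9 CPM in Z/Z. In the cluster led by Gm20713 and Gpc5, Cdh3 was at 197 and 218 CPM in WT against 338 and 257 CPM in Z/Z. Of the 4 such cells of WT 2, 1 held 9 of the 10 UMIs.

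Cdh4 (R-cadherin), the type I cadherin first described in retina, was highest in the cortical epithelium. In cTEC-like cells it was at 1309.6 (46 cells) and 838 (6 cells) CPM in WT 1 and WT 2 against 349.7 (37 cells) and 436 (66 cells) CPM in Z/Z 1 and Z/Z 2, above every other TEC class with at least 20 cells in the same library. A UMI of Cdh4 was seen in 89.1%, 100%, 70.3% and 84.8% of these cells, or in 78.3% (63.6 to 89.1), 83.3% (35.9 to 99.6), 22.2% (10.1 to 39.2) and 44.6% (32.3 to 57.5) after thinning to 2000 UMIs. The WT libraries were higher than the Z/Z libraries in both measures, with few cells behind them and no test. The highest single cTEC-like cell held 88 of the 155 Cdh4 UMIs in WT 2 and 101 of the 299 in Z/Z 1. In WT 1 it held 196 of 2114 and in Z/Z 2 106 of 687.

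In all TECs together, Cdh4 was at 281 and 146 CPM in WT against 68.8 and 95.7 CPM in Z/Z, again without overlap. The fold change was -1.24 ± 0.332, which just missed the threshold with edgeR (adjusted p = 0.0511) and passed it with DESeq2 (adjusted p = 0.00240). After thinning it was -1.39 and passed (adjusted p = 0.00118, edgeR), as it did with no filter on low counts (-1.18, adjusted p = 0.00536). Without WT 2 the Cdh4 value was -1.59 (adjusted p = 0.00956) and without WT 1 it was -0.71 (adjusted p = 0.104). With shared barcodes left out it was -0.94 (adjusted p = 0.338), and without the Aire and Fezf2 cluster it was -1.93 (adjusted p = 0.0589), a larger difference than with that cluster. Within the cluster, Cdh4 was at 134 and 104 CPM in WT against 14.0 and 35.4 CPM in Z/Z, a fold change of -2.24 ± 0.455 that edgeR did not call (adjusted p = 0.267, where 0.0160% of genes were called) and DESeq2 did (adjusted p = 0.00170). At 2000 UMIs, the share of TECs with a Cdh4 UMI was 19.3% and 14.4% in WT against 8.62% and 10.0% in Z/Z (exact permutation p = 0.33, two-sided). The cTEC-like cells held 2114 of the 3452 Cdh4 UMIs of TECs in WT 1 and 155 of the 338 in WT 2. In Z/Z 1 they held 299 of 1407 and in Z/Z 2 687 of 1737. They were 8.33% and 5.77% of TECs in WT against 1.89% and 4.26% in Z/Z. The part of this make-up in the Cdh4 difference of all TECs was not tested.

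Outside epithelium Cdh4 was low. Fibroblasts had 20.0, 37.5, 18.4 and 9.72 CPM in WT 1, WT 2, Z/Z 1 and Z/Z 2 and vSMCs had 22.1, 20.3, 15.3 and 12.2 CPM, so these ranges overlapped and both lay below the TEC range. Endothelial cells had 13.8, 0, 22.7 and 20.8 CPM, with the highest class level in the venous cells of Z/Z (63.1 and 60.0 CPM). None of these lineages had a called change: the fold change of Cdh4 was -0.91 ± 0.364 in fibroblasts (adjusted p = 0.227), 0.97 ± 0.525 in endothelial cells (adjusted p = 0.345) and -0.84 ± 0.532 in mural cells (adjusted p = 0.670).

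**Figure D3:**
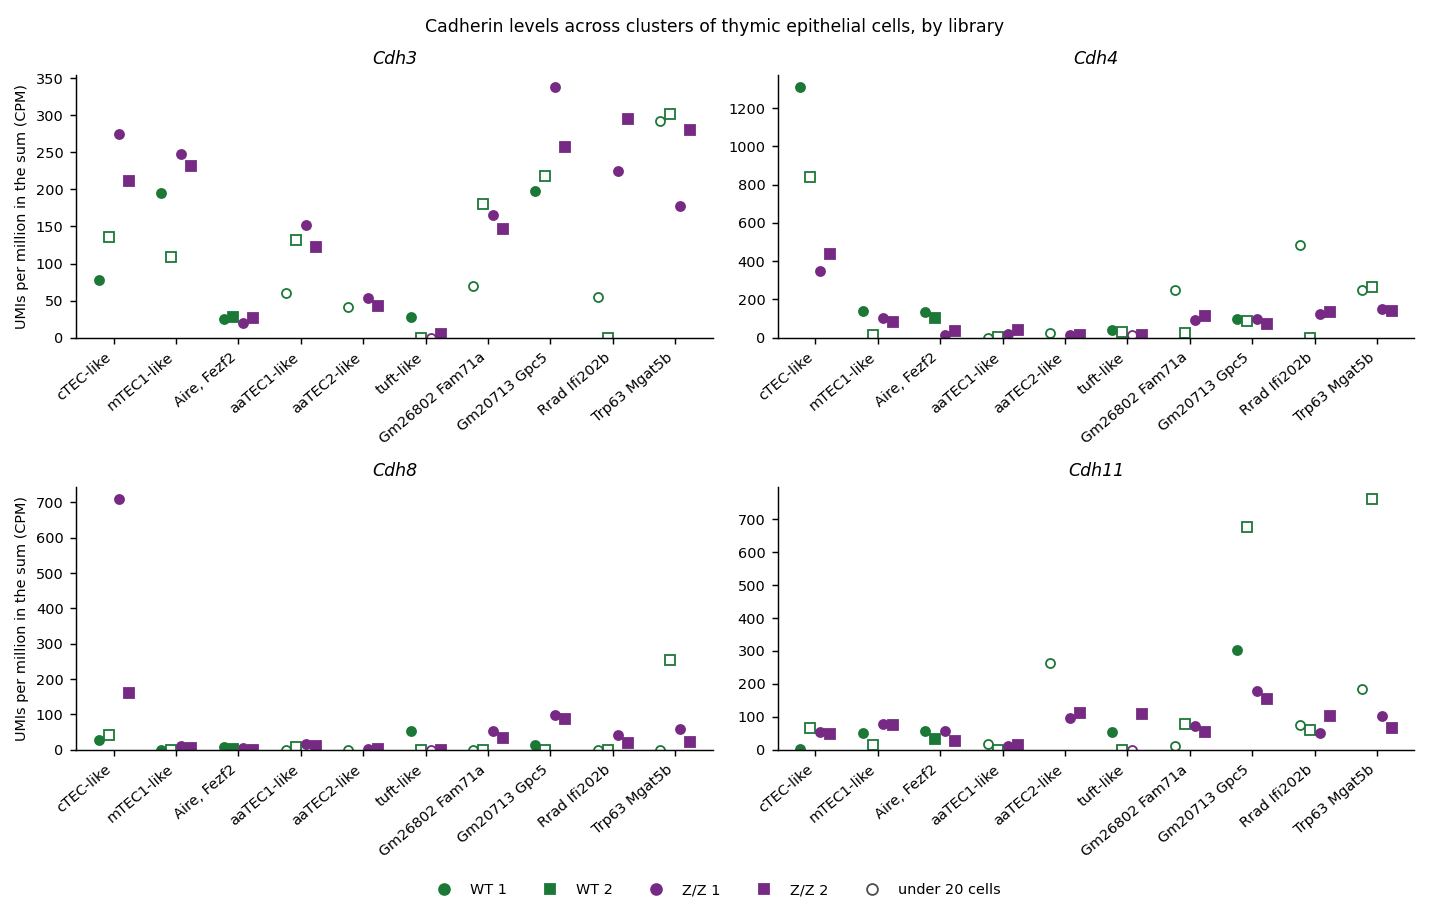
CPM (vertical axis) of Cdh3, Cdh4, Cdh8 and Cdh11 in TEC classes, with 1 point for each library; unnamed clusters carry their leading genes, and open markers are sums of under 20 cells. Cdh4 and, in Z/Z, Cdh8 peak in cTEC-like cells (Cdh4 349.7 to 1309.6 CPM over 4 libraries, Cdh8 161 and 709 CPM in the Z/Z pair), and Cdh3 is lowest among the larger classes in the Aire and Fezf2 cells (20.2 to 28.6 CPM).

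Cdh8, a type II cadherin best known from neurons, was close to absent outside epithelium and was concentrated in few TECs. Its level in TECs was 12.0 and 17.2 CPM in WT 1 and WT 2 against 58.6 and 33.4 CPM in Z/Z 1 and Z/Z 2. Fibroblasts stayed between 0.748 and 1.21 CPM, and the 10.5 CPM in endothelial cells of WT 2 came from 2 UMIs. Cdh8 in TECs rose by 1.84 ± 0.363 (adjusted p = 0.0250, edgeR), with both Z/Z libraries above both WT libraries.

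This Cdh8 call was lost under most changes of the cells summed. The log2 fold change was 1.04 without the Aire and Fezf2 cluster (adjusted p = 0.202, edgeR), 0.44 with shared barcodes left out (adjusted p = 0.803), 1.54 without WT 1 (adjusted p = 0.0672), 1.36 without Z/Z 1 (adjusted p = 0.116) and 0.85 after thinning (adjusted p = 0.224). The cTEC-like cells held 606 of the 1199 Cdh8 UMIs of Z/Z 1 and 253 of the 607 of Z/Z 2, and there Cdh8 was at 28.5 and 43.3 CPM in WT against 709 and 161 CPM in Z/Z. A Cdh8 UMI was seen in 3 of 46, 2 of 6, 24 of 37 and 34 of 66 of these cells in WT 1, WT 2, Z/Z 1 and Z/Z 2, and 1 cell of WT 1 held 27 of its 46 UMIs. After thinning, the shares of cTEC-like cells with a Cdh8 UMI were 2.17% (0.0550 to 11.5), 33.3% (4.33 to 77.7), 41.7% (25.5 to 59.2) and 18.5% (9.92 to 30.0), which overlapped between genotypes.

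Other classes with Cdh8 were mostly unnamed clusters. The cluster led by Gm20713 and Gpc5 had 14.9 and 0 CPM in WT against 99.6 and 87.2 CPM in Z/Z, and the cluster led by Gm26802 and Fam71a had 0 CPM in both WT libraries (15 and 7 cells) and 54.0 and 34.0 CPM in Z/Z. In the Aire and Fezf2 cells Cdh8 was at most at 7.45 CPM. The cluster led by Trp63 and Mgat5b held 21 of the 40 Cdh8 UMIs of TECs in WT 2, in 9 cells with 15 UMIs in 1 of them. It held 35 UMIs in 151 cells of Z/Z 1 and 4 in 57 cells of Z/Z 2, and was under the floor of 3 counts in WT 1. Tuft-like cells held 34 of the 148 UMIs of WT 1, with 16 in 1 cell. Across all TECs, the thinned shares were 1.29%, 5.77%, 4.57% and 4.04% in WT 1, WT 2, Z/Z 1 and Z/Z 2 (unthinned 5.62%, 11.5%, 11.2% and 9.69%), against at most 0.249% in fibroblasts. The genotypes overlapped in this share (exact permutation p = 1, two-sided), so the higher Cdh8 level of the Z/Z sums was not matched by a measurably larger share of positive TECs.

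Cdh5 (VE-cadherin), the type II cadherin of endothelial adherens junctions, was at 962 and 636 CPM in WT 1 and WT 2 against 1122 and 996 CPM in Z/Z 1 and Z/Z 2 in endothelial cells. WT 2, with 25 endothelial cells, was the lowest, and WT 1 was close to Z/Z 2. The fold change was 0.38 ± 0.238 and was not called (adjusted p = 0.422, edgeR). Without WT 1 it was 0.88 (adjusted p = 0.0767), and with shared barcodes left out it was 0.44 (adjusted p = 0.498).

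The vessel classes held similar amounts of Cdh5. Capillary cells led by Gpihbp1 had 1041, 724, 1305 and 1145 CPM in WT 1, WT 2, Z/Z 1 and Z/Z 2, arterial cells had 1013, 602, 969 and 879 CPM, and venous cells had 829, 504, 886 and 750 CPM. The order from Gpihbp1 capillary to arterial to venous cells was the same in all 4 libraries, while the ranges over libraries overlapped. A Cdh5 UMI was seen in 97.3%, 84.0%, 96.7% and 94.8% of endothelial cells, or in 81.3%, 52.0%, 81.6% and 79.6% after thinning, against at most 0.332% of thinned fibroblasts.

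In other lineages Cdh5 was near its floor. TECs had 1.95, 0, 3.76 and 3.91 CPM, and 1 cell held 14 of the 24 UMIs of WT 1. Fibroblasts had 1, 0, 33 and 9 UMIs in WT 1, WT 2, Z/Z 1 and Z/Z 2, too few to enter the fibroblast test. In droplets without a called cell, which hold free RNA, Cdh5 was at 18.8 and 9.39 CPM in WT against 112 and 108 CPM in Z/Z. The summed level of 5 endothelial markers in fibroblasts was 118 and 116 CPM in WT against 98.6 and 91.4 CPM in Z/Z (Egfl7 was at 0 in WT 1), against 3027 to 4008 CPM in endothelial cells. Other endothelial genes went the other way in fibroblasts. Cldn5 was at 0.36 and 0 CPM in WT against 2.24 and 2.43 CPM in Z/Z, and Ptprb at 1.08 and 0.35 against 2.74 and 2.56 CPM. Esam was also higher in both Z/Z libraries, while Tjp1 and Jam3 had negative fold changes, and none of these was called. After subtracting 10% of the profile of droplets without a called cell, 0 Cdh5 UMIs remained in fibroblasts of all 4 libraries. The part of free RNA in the Cdh5 of fibroblasts was not tested beyond this subtraction.

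Cdh6 (K-cadherin), a type II cadherin known from kidney and smooth muscle, was the mural member. In vSMCs it was at 179 and 213.5 CPM in WT 1 and WT 2 against 208 and 196 CPM in Z/Z 1 and Z/Z 2, and WT 2 rested on 8 cells. The WT and Z/Z values overlapped, and the fold change in mural cells was -0.03 ± 0.271 (adjusted p = 0.988, edgeR). A Cdh6 UMI was found in 37 of 62, 7 of 8, 149 of 303 and 130 of 248 vSMCs, which gave thinned shares of 24.2% (14.2 to 36.7), 50.0% (15.7 to 84.3), 22.8% (18.2 to 27.9) and 30.5% (24.8 to 36.7). Fibroblasts had thinned Cdh6 shares of at most 0.845%.

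Pericytes had less Cdh6 than vSMCs in the libraries with enough cells, at 36.0 and 29.4 CPM in Z/Z 1 and Z/Z 2, and TECs had 12.4, 6.90, 2.10 and 3.86 CPM. In TECs both WT libraries were above both Z/Z libraries, with a fold change of -1.59 ± 0.475 that edgeR did not call (adjusted p = 0.0666) and DESeq2 did (adjusted p = 0.0463). Without WT 2 it was -1.88 (adjusted p = 0.0360), and with shared barcodes left out it was -1.92 (adjusted p = 0.230). The Aire and Fezf2 cluster held 144 of the 152 Cdh6 UMIs of TECs in WT 1, and 1 cell alone held 84 of the 144. In that cluster the Cdh6 levels of 19.9, 5.01, 10.1 and 26.1 CPM overlapped between genotypes (fold change 0.47 ± 0.743, adjusted p = 0.803).

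Cdh11 (OB-cadherin), the type II cadherin of mesenchyme, was the fibroblast member and was also present in TECs. Fibroblasts had 128, 139, 85.1 and 108 CPM in WT 1, WT 2, Z/Z 1 and Z/Z 2, and TECs had 64.5, 69.0, 62.1 and 64.4 CPM. The ranges did not overlap, and endothelial cells (at most 3.19 CPM) and vSMCs (at most 2.47 CPM) lay far below both. The highest Cdh11 level of any lineage was in the few mesothelial-like cells of the Z/Z libraries, at 527 and 345 CPM in 4 and 27 cells.

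Over all fibroblasts Cdh11 did not pass the threshold (-0.41 ± 0.173, adjusted p = 0.258, edgeR), but the fibroblast classes differed from each other. In Inmt, Bmper and Penk fibroblasts (intFB-like), which held the most, Cdh11 was at 413 and 389 CPM in WT 1 and WT 2 against 177 and 170.2 CPM in Z/Z 1 and Z/Z 2. In Postn and Ptn fibroblasts (medFB-like) it was at 138, 142, 63.9 and 79.9 CPM, and in Pi16 and Cd248 fibroblasts of the capsule (capsFB-like) at 23.4, 20.3, 32.9 and 55.5 CPM. Both WT libraries were higher than both Z/Z libraries in the intFB-like and medFB-like cells, and lower in the capsFB-like cells.

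Tested within classes, Cdh11 fell by 1.14 ± 0.189 on the log2 scale in intFB-like cells (adjusted p = 0.0139, edgeR, where 1.39% of genes were called, 0.648% lower) and by 0.98 ± 0.182 in medFB-like cells (adjusted p = 0.0305, where 1.83% of genes were called, 0.946% lower). In capsFB-like cells the value was 1.03 ± 0.309 (adjusted p = 0.116, where 3.74% of genes were called). The genotype difference of Cdh11 itself differed between the 3 classes (interaction, adjusted p = 0.00213, edgeR, where 2.60% of genes were called), by 2.01 ± 0.302 between capsFB-like and medFB-like cells and by 2.10 ± 0.302 between capsFB-like and intFB-like cells, but only by -0.09 ± 0.248 between intFB-like and medFB-like cells (adjusted p = 0.958). The interaction was 0.0616 without WT 1 and 0.00263 with shared barcodes left out (adjusted p).

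These Cdh11 calls were near the threshold. With shared barcodes left out the value was -1.02 in intFB-like cells (adjusted p = 0.0551) and -0.93 in medFB-like cells (adjusted p = 0.0569). Without Z/Z 1 it was -1.18 (adjusted p = 0.0501) and -0.82 (adjusted p = 0.104), without Z/Z 2 it was -1.09 in intFB-like cells (adjusted p = 0.111), and without WT 2 it was -0.95 in medFB-like cells (adjusted p = 0.121). With no filter on low counts the intFB-like value was -1.03 (adjusted p = 0.516), in a fit that called 0 genes. The class make-up of the fibroblast sums also moved, with intFB-like cells at 12.0% and 11.5% of WT fibroblasts and 22.9% and 42.2% of Z/Z fibroblasts. Thinned to 2000 UMIs, 42.9% (31.1 to 55.3), 31.8% (13.9 to 54.9), 20.0% (15.4 to 25.2) and 22.3% (17.8 to 27.3) of intFB-like cells had a Cdh11 UMI in WT 1, WT 2, Z/Z 1 and Z/Z 2.

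In TECs, Cdh11 differed by less than the spread between libraries (0.07 ± 0.145, adjusted p = 0.766, edgeR), and 9.38%, 9.62%, 10.7% and 10.2% of thinned TECs had a UMI, against at most 0.584% of endothelial cells. The level differed between TEC classes. The cluster led by Gm20713 and Gpc5 had 302, 676, 179 and 154 CPM in WT 1, WT 2, Z/Z 1 and Z/Z 2, the cluster led by Trp63 and Mgat5b had 183, 761, 104 and 65.9 CPM, and the aaTEC2-like cells had 262 CPM in WT 1 against 95.5 and 112 CPM in the Z/Z pair. The aaTEC1-like cells had at most 17.3 CPM of Cdh11. The WT values of these clusters came from 4 to 41 cells, and single cells held much of several: 22 of the 31 UMIs behind 676 CPM, 49 of the 63 behind 761 CPM and 17 of the 32 behind 262 CPM.

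Cdh13 (T-cadherin), which is held in the membrane by a GPI anchor and binds adiponectin, had the largest genotype difference of the set. In fibroblasts it was at 54.8 and 60.6 CPM in WT 1 and WT 2 against 3.90 and 4.18 CPM in Z/Z 1 and Z/Z 2, that is 457, 173, 47 and 31 UMIs. The WT and Z/Z levels stood far apart. Cdh13 fell by 3.77 ± 0.216 on the log2 scale (adjusted p = 0.000227, edgeR). The call held with shared barcodes left out (-3.63, adjusted p = 0.00125) and without either WT library. Without Z/Z 1 the value was -3.70 (adjusted p = 0.151) and without Z/Z 2 it was -3.81 (adjusted p = 0.137), in fits that called 0 genes. With no doublet removal the value was -2.84 (adjusted p = 0.00107), and after subtracting 10% of the profile of droplets without a called cell, 430 and 164 Cdh13 UMIs remained in WT and 0 in both Z/Z libraries, so the size of the fold is not fixed by these data.

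The Cdh13 of WT fibroblasts lay in the medFB-like cells. There it was at 86.9 and 83.1 CPM in WT against 3.96 and 3.70 CPM in Z/Z, and a UMI was found in 102 of 373, 47 of 141, 22 of 724 and 6 of 221 cells. The intFB-like cells had 4.91, 11.8, 3.92 and 6.34 CPM and the capsFB-like cells 11.3, 5.08, 3.77 and 1.98 CPM in WT 1, WT 2, Z/Z 1 and Z/Z 2. The Z/Z level of medFB-like cells was thus within the range of the other fibroblast classes, where WT medFB-like cells stood above it.

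Within medFB-like cells Cdh13 fell by 4.44 ± 0.244 (adjusted p = 0.000103, edgeR), and the call held without each library in turn (highest adjusted p = 0.00153) and with shared barcodes left out (-4.30, adjusted p = 0.000869). It was -0.32 ± 0.720 in intFB-like cells (adjusted p = 0.882) and -1.60 ± 0.574 in capsFB-like cells (adjusted p = 0.174). The difference itself differed between the classes (interaction, adjusted p = 0.00332), by 4.22 ± 0.670 between intFB-like and medFB-like cells and by 2.81 ± 0.639 between capsFB-like and medFB-like cells. Without WT 1 the interaction had an adjusted p of 0.0383, and with shared barcodes left out 0.00895.

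The share of fibroblasts with a Cdh13 UMI moved with the level. After thinning it was 8.11% (6.04 to 10.6) in WT 1, 7.81% (4.44 to 12.6) in WT 2, 1.16% (0.637 to 1.94) in Z/Z 1 and 0.815% (0.30 to 1.77) in Z/Z 2, against unthinned shares of 20.3%, 26.0%, 3.23% and 3.66%. Haematopoietic cells, which should lack the gene, had a Cdh13 UMI in 2 of 120, 0 of 47, 0 of 32 and 1 of 52 cells at median depths of 5278.5, 5110, 18076.5 and 3142.5 UMIs, and 0 of 47 allows a share of up to 6.38% by the limit of 3 counts. Their thinned shares were 0.862% (0.0218 to 4.71), 0%, 0% and 2.00% (0.0506 to 10.6), so the Z/Z fibroblast shares lay within the range of these values. Both WT fibroblast shares were above all 4, although their intervals overlapped those of the haematopoietic cells. Free Cdh13 RNA was higher in Z/Z, at 79.8 and 77.0 CPM in droplets without a called cell against 32.6 and 31.7 CPM in WT, the opposite direction to the fibroblasts.

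Endothelial cells held most of the Cdh13 of the tissue, at 1049.5 and 1146 CPM in WT 1 and WT 2 against 666 and 628 CPM in Z/Z 1 and Z/Z 2. Both WT libraries were above both Z/Z libraries. The fold change of -0.75 ± 0.198 missed the threshold with edgeR (adjusted p = 0.0737) and passed it with DESeq2 (-0.74, adjusted p = 0.0323), and it was -0.79 with shared barcodes left out (adjusted p = 0.157). The thinned share of endothelial cells with a Cdh13 UMI was 65.4% and 64.0% in WT against 54.5% and 54.9% in Z/Z (exact permutation p = 0.33, two-sided). The make-up of these sums moved too, with the Esm1 capillary cells, which were low in Cdh13, at 3 of 110 and 0 of 25 endothelial cells in WT against 86 of 698 and 67 of 669 in Z/Z, and its part in the difference was not tested.

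The vessel classes differed in Cdh13 more than in Cdh5. In capillary cells led by Gpihbp1, Cdh13 was at 1672, 1888, 930.0 and 829 CPM in WT 1, WT 2, Z/Z 1 and Z/Z 2, and in arterial cells at 883, 783, 761 and 827 CPM. Venous cells had 391, 176 (5 cells), 313 and 199.6 CPM, and the Esm1 capillary cells of Z/Z had 182 and 299 CPM. The WT and Z/Z libraries stood apart in the Gpihbp1 capillary cells and overlapped in arterial and venous cells. After thinning, 88.7% (77.0 to 95.7), 92.9% (66.1 to 99.8), 67.5% (62.6 to 72.1) and 67.1% (62.2 to 71.7) of Gpihbp1 capillary cells had a Cdh13 UMI. No vessel class had the 20 cells in every library that a test needed.

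In TECs, Cdh13 was at 11.1, 30.6, 12.2 and 15.6 CPM and did not pass the threshold (-0.38 ± 0.499, adjusted p = 0.619, edgeR). The aaTEC2-like cells held 180 of the 250 Cdh13 UMIs of TECs in Z/Z 1 and 115 of the 283 in Z/Z 2 (55.1 and 50.5 CPM), and 0 in the 13 such cells of WT 1. In WT 2, 1 tuft-like cell held 64 of the 71 UMIs, and in Z/Z 2, 1 cell of the Aire and Fezf2 cluster held 53. Without WT 2 the Cdh13 value in TECs was 0.51, and with shared barcodes left out it was 0.93. In mural cells the value was -0.41 ± 0.575 (adjusted p = 0.884), and vSMCs had 20.3, 30.5, 7.42 and 8.63 CPM.

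**Figure D4:**
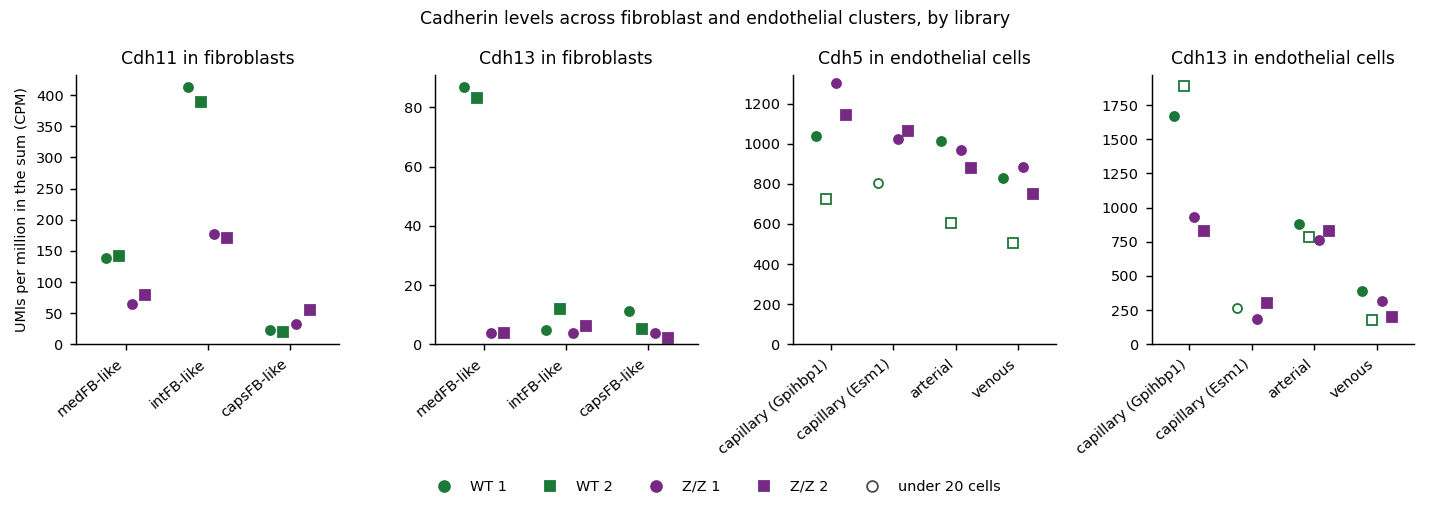
CPM (vertical axis) of Cdh11 and Cdh13 in medFB-like, intFB-like and capsFB-like fibroblasts, and of Cdh5 and Cdh13 in Gpihbp1 capillary, Esm1 capillary, arterial and venous endothelial cells, with 1 point for each library and open markers for sums of under 20 cells. Cdh13 in medFB-like cells is at 83.1 and 86.9 CPM in WT against 3.70 and 3.96 CPM in Z/Z, and Cdh11 in intFB-like cells at 389 and 413 CPM against 170.2 and 177 CPM.

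Cdh16 (kidney-specific cadherin) was barely detected, with 51 UMIs in 41 cells of all 4 libraries, and no lineage passed the filter for a test. TECs had 4, 0, 17 and 10 UMIs, or 0.326, 0, 0.831 and 0.551 CPM, where the floor of 3 counts lay between 0.147 and 1.29 CPM. The 7 UMIs in vSMCs of Z/Z 2 (5.03 CPM) were the largest sum outside TECs. At this depth Cdh16 could not be ordered between lineages or compared between genotypes.

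The genotype difference was also compared between TECs, fibroblasts and endothelial cells in a single fit with library as a covariate, in which 13.1% of 17644 genes were called and 2 of the 7 members tested. For Cdh13 (adjusted p = 0.000266, edgeR; 3.68e-05 with shared barcodes left out), the log2 fold change in fibroblasts minus that in TECs was -3.51 ± 0.428 (adjusted p = 0.000174), and that in endothelial cells minus that in fibroblasts was 3.17 ± 0.401 (adjusted p = 0.00428). Endothelial cells and TECs differed by -0.34 ± 0.378 in Cdh13 (adjusted p = 0.680). For Cdh5 (adjusted p = 0.0222), the contrast between endothelial cells and fibroblasts was -4.06 ± 0.979 and did not pass alone (adjusted p = 0.112). The Cdh5 interaction had an adjusted p of 0.0790 without WT 1 and 0.0280 with shared barcodes left out, and the fibroblast side rested on 1, 0, 33 and 9 UMIs in WT 1, WT 2, Z/Z 1 and Z/Z 2. With 10% of the profile of droplets without a called cell subtracted, 0 of these UMIs remained in each library. The interaction was not refitted on those sums. The other members did not pass (Cdh6 0.0545, Cdh8 0.0918, Cdh4 0.136, Cdh11 0.384 and Cdh3 0.503, adjusted p).

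The partners of these cadherins were followed as lists. Of 14 catenins and junction adaptors tested in TECs, 2 rose, 2 fell and 10 did not pass, where 21.5% of all genes were called, with a median log2 fold change of 0.26 against 0.00 for all genes. Pkp4, an armadillo protein of the catenin family, rose by 1.15 (194, 210.4, 432 and 383 CPM in WT 1, WT 2, Z/Z 1 and Z/Z 2) and Vcl (vinculin), which links catenins to actin, by 0.59 (471, 463, 653 and 619.7 CPM). Ctnna3 fell by 2.68 (130.4, 42.3, 11.3 and 13.5 CPM) and Ctnna2 by 0.94 (50.5, 37.9, 18.9 and 23.2 CPM), both alpha-catenins. These 4 genes were named because they passed on the same 4 libraries, so their lack of overlap between genotypes is no further support.

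Among 4 nectins, which build the junction beside cadherins, Nectin2 rose by 1.07 in TECs (63.0, 53.0, 97.7 and 125 CPM). Of 11 other cadherins tested in TECs, 4 fell and none rose, where 11.8% of all genes were called lower and 9.74% higher, with a list median of -0.97. They were Cdh9 (-3.22), Cdh20 (-3.12), Cdh17 (-2.05) and Cdh2 (-1.67), of which Cdh2 was at 43.0 and 44.0 CPM in WT against 13.7 and 11.1 CPM in Z/Z. Cdh1 had a positive value that just missed the threshold (0.61, adjusted p = 0.0506, edgeR), at 517 and 592 CPM in WT against 784 and 745 CPM in Z/Z. After thinning, Cdh1 was at 0.30 (adjusted p = 0.301, edgeR). Of 8 desmosomal cadherins tested, Dsg3 (1.09), Dsc2 (0.86) and Dsc3 (0.83) rose and Dsg1b (-2.28) and Dsg1a (-2.21) fell. Of 8 endothelial junction genes tested in TECs, Jam2 rose by 3.11, F11r fell by 0.76 and Ocln fell by 0.61. For the nectins, desmosomal cadherins and endothelial junction genes too, the share over all genes tested in TECs was 21.5% called in either direction.

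These list calls rested on the TECs summed. Without the Aire and Fezf2 cells, Cdh2 (-2.88, adjusted p = 0.0109, edgeR) was the only gene of the 5 lists still called, and Vcl (-0.26) and Cdh17 (0.91) changed sign without passing. With shared barcodes left out, no list gene was called in TECs (1 of 17695 genes was), and Cdh2 was at -1.94 (adjusted p = 0.0974). After thinning, where 22.3% of genes were called, 3 of 14 catenins and adaptors, 1 of 4 nectins (Nectin4, -1.24), 3 of 6 other cadherins, 5 of 6 desmosomal cadherins and 3 of 5 endothelial junction genes passed.

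In fibroblasts, where Cdh13 fell, 0 of 13 catenins and adaptors, 0 of 3 nectins, 0 of 2 desmosomal cadherins and 0 of 7 endothelial junction genes passed, and Cdh19 and Cdh1 were called higher among 7 other cadherins. Over all genes tested in fibroblasts, 2.92% were called. Cdh19 was at 4.08, 1.75, 10.5 and 11.6 CPM (1.83 ± 0.369, adjusted p = 0.0328, edgeR). Cdh1 was low in fibroblasts, at 1.92, 2.10, 6.23 and 8.23 CPM (1.92 ± 0.397, adjusted p = 0.0369, edgeR) against 517 to 784 CPM in TECs. The summed level of 6 epithelial markers in fibroblasts moved with it, at 32.2 and 21.7 CPM in WT (Krt5 at 0 in WT 2) against 55.7 and 79.2 CPM in Z/Z, and its part in the Cdh1 value was not tested. With shared barcodes left out, both calls were lost (Cdh19 1.45, adjusted p = 0.0890, and Cdh1 1.97, adjusted p = 0.0791), and after thinning Cdh19 was at 0.59 (adjusted p = 0.725) and Cdh1 was too low to test.

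In endothelial cells, 1 of 11 catenins and adaptors and 1 of 8 endothelial junction genes passed, where 1.90% of all genes were called. Of the other lists, 0 of 3 nectins, 0 of 3 other cadherins and 0 of 1 desmosomal cadherin passed. Vcl fell by 1.63 ± 0.216 (adjusted p = 0.00636, edgeR), from 1531 and 2118 CPM in WT to 589.6 and 568 CPM in Z/Z. Cldn5, the claudin of endothelial tight junctions, rose by 1.20 (adjusted p = 0.0241, edgeR). With shared barcodes left out, where 0.515% of genes were called, Vcl was at -1.56 (adjusted p = 0.0344) and Cldn5 at 1.27 (adjusted p = 0.0846). After thinning, where 0.233% of genes were called, neither passed (adjusted p = 0.0906 and 0.0840). No list gene was called in mural cells, where 0.0809% of all genes were called.

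Over 27 sums of a lineage in a library with at least 20 cells, the genes with the pattern most like each member were found among 17111 genes by Pearson's r, given as a description, since these sums share libraries and depth. For Cdh3 they were Wwc1 (0.954), Cgn (0.952) and Gsta4 (0.939), for Cdh4 Katnal1 (0.830), 6030407O03Rik (0.825) and Stxbp5l (0.799), and for Cdh8 Urah (0.828), Cnksr1 (0.822) and Krt17 (0.821). For Cdh5 they were the vessel genes Tie1 (0.984), Gpihbp1 (0.964) and Robo4 (0.955), and for Cdh13 Shank3 (0.895), Mecom (0.879) and Vwf (0.861). Cdh6 was most like Ctnna3 (0.904), Myh11 (0.884), the smooth muscle myosin, and Lrrtm3 (0.873), and Cdh11 was most like Aldh1a1 (0.915), Efs (0.912) and Tenm3 (0.911).

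On GRCm38, 6 of the 8 members lie on chromosome 8, though not side by side. Cdh8 spans chr8:99024471-99416471 (minus strand), Cdh11 chr8:102632095-102785642 (minus strand), Cdh5 chr8:104101625-104144511 (plus strand) and Cdh16 chr8:104601911-104624396 (minus strand). Cdh3 spans chr8:106510891-106557297 (plus strand), beside Cdh1, and Cdh13 spans chr8:118283733-119324921 (plus strand). Cdh4 lies at chr2:179442431-179899373 (plus strand) and Cdh6 at chr15:13028701-13173675 (minus strand). The lengths ran from 22.5 kb for Cdh16 to 1041 kb for Cdh13, and where introns are counted, annotated genes inside a member on its strand can take up its reads. The gene Gm15680, inside Cdh8 on its strand, had 79 UMIs against 2057 for Cdh8. Gm29682, which overlaps Cdh5 on the other strand, had 172 UMIs.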

How the data were processed

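Droplet 3′ scRNA-seq was performed on sorted CD45- thymic stroma. Counts of UMIs per gene and droplet were deposited by the authors as filtered and raw matrices. Per the labels, the submitters' processing notes name Cell Ranger 7.01 with GRCm38.p5 and mm10, and reads counted to transcripts exceeded exonic reads in the deposited run metrics of the authors, so intron reads were counted too. The deposited metrics, computed by the authors' pipeline, give sequencing saturation as a percent (65.2 to 95.2). No further normalization was applied before deposit.

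Cells with over 1000 genes and under 20% mitochondrial UMIs were kept (10245), and the highest Scrublet scores, 3.9% of each library, were removed as doublets (399 cells), because the automatic threshold marked only 82 (0.80%). Cells were scaled to 10000 UMIs and clustered with scanpy 1.11.5 and leidenalg 0.10.2 (3500 variable genes, 35 components, resolution 1), and TECs again alone (45 components). The members, all markers and the comparison lists (189 genes) were held out of the clustering. A name needed at least 3 markers detected in 20% of the cells of a cluster. Ribosomal and haemoglobin genes (101 features) were left out of CPM.

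UMI sums per lineage or class and library were tested with edgeR 4.0.16 (R 4.3.3; TMM factors, filterByExpr, quasi-likelihood F test, two-sided, Benjamini-Hochberg over all genes tested, threshold 0.05), with DESeq2 1.42.0 as an alternative. A rank-sum test over cells, as in the study's methods, was not used, since cells of 1 library are not independent. Classes needed 20 cells in every library. The scripts were tested on simulated counts with known changes. Shares of cells were compared after thinning to 2000 UMIs, with exact permutation tests over libraries (smallest p 0.33). Droplets of at most 100 UMIs gave the free RNA. Positions come from GENCODE vM21.

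The members and lists were chosen with earlier results of these data known. All 8 members are named, with up to 5 called genes per list and lineage by smallest adjusted p, and the 3 genes most like each member with at least 100 UMIs (Pearson's r of log2(CPM + 1)). The class interaction, the sums without TEC classes and the alternatives of classes and lists were added after seeing the data. Alternatives changed the tool, count filter, block, libraries, cell limits, doublets, depth, shared barcodes, free RNA and clustering. Comparisons between genes per length were not made.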

Additional observations from a re-analysis of the deposited data

Results flagged for a closer look

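The genotype difference of Cdh13 differed between TECs, fibroblasts and endothelial cells (interaction, adjusted p = 0.000266, edgeR), and so did that of Cdh5 (adjusted p = 0.0222), whose fibroblast sums held 1, 0, 33 and 9 UMIs. Those Cdh5 sums held 0 UMIs in each library after subtracting 10% of the profile of droplets without a called cell. Between medFB-like, intFB-like and capsFB-like fibroblasts, the genotype difference of Cdh11 differed (adjusted p = 0.00213, edgeR), with both Z/Z libraries lower than WT in the first 2 classes and higher in the capsule class, and so did that of Cdh13 (adjusted p = 0.00332). In droplets without a called cell, which entered no comparison of cells, Cdh3 was at 57.9 CPM or more in both Z/Z libraries against at most 14.2 CPM in WT. There Cdh5 was at 108 CPM or more in Z/Z against at most 18.8 CPM in WT, and Cdh13 at 77.0 CPM or more against at most 32.6 CPM. Whether this free RNA reached the cell sums was not tested beyond the subtraction of 10% of its profile.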

How the results depend on the processing

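The share of all genes called moved with the setting, so the counts of members below are not a result about the members alone. In TECs that share was 21.5% in the main fit, 3.38% without the Aire and Fezf2 cells and 0.00565% with shared barcodes left out. It is not given for every setting. The number of members called in TECs was 2, and it was 4 with DESeq2 and without a filter on low counts, 1 with the replicate block, more than 500 genes per cell, under 10% mitochondrial UMIs and no doublet removal, and 0 with shared barcodes left out and without the Aire and Fezf2 cells. Without each library in turn it ranged from 0 (without Z/Z 1) to 4 (without WT 2). In fibroblasts 1 member was called, 3 with no filter and 2 with no doublet removal (0 to 1 without each library). In endothelial cells 0 were called, 1 with DESeq2 and 1 with no doublet removal. In mural cells it was 0 throughout. Among classes 3 calls became 7 with no filter and 1 with shared barcodes left out (2 to 3 without each library). The 2 lineage interactions ranged from 1 to 4 and the 2 class interactions from 1 to 2 without each library.

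Log2 fold changes that changed sign were near 0 in the main fit, or rested on few UMIs or on UMIs held by single cells. In TECs, Cdh11 was -0.11 thinned, -0.64 with shared barcodes left out, -0.47 without the Aire and Fezf2 cells, -0.0929 without the aaTEC2-like cells and -0.00489 to 0.15 without each library, and Cdh13 was 0.72 thinned, 0.93 with shared barcodes left out and -1.02 to 0.51 without each library. In mural cells, Cdh6 was 0.0777 with no filter, 0.25 thinned, 0.0358 with shared barcodes left out and -0.11 to 0.0504 without each library. In intFB-like cells the ranges without each library were -0.18 to 0.82 for Cdh4 and -1.13 to 0.19 for Cdh13. In the Aire and Fezf2 cells they were -0.44 to 0.00833 for Cdh3 (0.29 with shared barcodes left out), -0.40 to 1.85 for Cdh6 (-0.44 with shared barcodes left out), -0.76 to 0.28 for Cdh11 and -1.59 to 2.66 for Cdh13. The difference in the share of cells with a UMI changed sign for Cdh11 in fibroblasts at 1000 UMIs (0.182 percentage points), Cdh5 in endothelial cells at 4000 UMIs (-2.46) and Cdh6 in mural cells at 1000 UMIs (1.60). The Cdh5 difference was not near 0 in the main setting, and WT 2 gave only 25 endothelial cells to it. The causes were not tested. Of all values recomputed, 293 kept their direction and side of the threshold, 17 newly passed it, 21 no longer passed it and 23 changed sign.

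Same-numbered libraries did not deviate together (correlations of -0.0838 in TECs, -0.0412 in fibroblasts, -0.0102 in endothelial cells and -0.0301 in mural cells), so the replicate number is a label only. With it as a block, 2277 genes were called in TECs in place of 4055, 366 in endothelial cells in place of 216, and 69 in mural cells in place of 7. Over all genes, shared barcodes left out gave 1 call in TECs, 210 in fibroblasts (405 with them) and 58 in endothelial cells, no filter gave 1316 in fibroblasts, 728 in endothelial cells and 163 in mural cells, and DESeq2 gave 24 in mural cells. Leaving out the Aire and Fezf2 cells gave 563 in TECs. Thinning gave 189 in fibroblasts and 18 in endothelial cells. More than 500 genes gave 92 in endothelial cells, and leaving out a library gave 0 in TECs without Z/Z 1 and 0 to 235 in fibroblasts. WT 2 is limited by its number of cells (25 endothelial cells, 8 vSMCs and 3 pericytes) rather than by UMIs per TEC, of which its median was 17716.5.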
